A study of Homo sapiens with 27 samples.

Results

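The tryptophan-kynurenine pathway was followed in the human monocytic cell line U937 through 10 genes: TDO2, IDO1, AFMID, KYNU, KMO, HAAO, QPRT, AADAT, KYAT1 and AHR. They were chosen by symbol from the platform's probe-to-gene table, with INDO read as IDO1 and CCBL1 as KYAT1. All 10 genes had a named probe, 1 each, among 30968 probes, of which 17397 carried a gene name, for 15207 genes. The study used 3 groups: cells given 10 µM PBD150 for 2 h and then lipopolysaccharide (LPS) at 4 µg/ml, cells given LPS at 4 µg/ml alone, and untreated cells. PBD150 inhibits glutaminyl cyclase, and LPS is a bacterial wall component sensed by Toll-like receptor 4. Culture lasted 48 h in all groups. None of the 27 arrays had PBD150 without LPS. Each group had 3 biological replicates, called cultures below, with 3 single-colour arrays each, 27 arrays in all. The title calls the cells macrophages, and all cultures came from the same line. The labels call the replicates biological but do not say how separate the cultures were, so p-values measure the spread between these cultures.

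Most dietary tryptophan that is not built into protein is broken down along this pathway. TDO2 and IDO1 open the tryptophan ring to give N-formylkynurenine, and AFMID removes the formyl group to give kynurenine. Kynurenine then goes either through KMO, KYNU and HAAO towards quinolinate, which QPRT turns into a precursor of NAD, or through the aminotransferases AADAT and KYAT1 to kynurenate. AHR, the aryl hydrocarbon receptor, is a transcription factor that kynurenine and kynurenate can activate. TDO2 is best known as a liver enzyme, while IDO1 is known as the interferon-inducible enzyme of macrophages and dendritic cells.

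With LPS, 7 of the 10 genes rose and 0 fell: both ring-opening dioxygenases, TDO2 and IDO1, 4 enzymes of the branch from kynurenine towards NAD, KYNU, KMO, HAAO and QPRT, and the receptor AHR. Over all probes, 10.6% were called higher and 11.8% lower in that comparison (limma, Benjamini-Hochberg adjusted p under 0.05). The median log2 difference was 1.44 over the 10 genes and 0.08 over all probes. In PBD150 plus LPS against untreated cells 6 rose and 0 fell, where 12.6% of all probes were called higher and 13.5% lower. Between PBD150 plus LPS and LPS alone 0 of 10 passed, as did 0% of all probes. The members and the gene lists were picked with earlier results of these data known, so these counts describe the genes and do not test the pathway.

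The promoters of TDO2 and KYNU are shown because these genes had the largest rises of the 10. Each window runs from 250 bases before to 50 bases after the annotated start, in RefSeq's GRCh38.p14 sequence, 5′ to 3′ on the gene's strand. Capitals mark matches to the motifs searched.
TDO2, chr4:155903446-155903745, plus strand: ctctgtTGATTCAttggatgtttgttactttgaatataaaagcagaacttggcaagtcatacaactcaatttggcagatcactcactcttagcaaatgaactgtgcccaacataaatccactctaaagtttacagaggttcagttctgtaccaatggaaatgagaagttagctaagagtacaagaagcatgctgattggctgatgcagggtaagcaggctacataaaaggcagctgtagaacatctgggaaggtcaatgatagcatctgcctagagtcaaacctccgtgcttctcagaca
KYNU, chr2:142877414-142877713, plus strand: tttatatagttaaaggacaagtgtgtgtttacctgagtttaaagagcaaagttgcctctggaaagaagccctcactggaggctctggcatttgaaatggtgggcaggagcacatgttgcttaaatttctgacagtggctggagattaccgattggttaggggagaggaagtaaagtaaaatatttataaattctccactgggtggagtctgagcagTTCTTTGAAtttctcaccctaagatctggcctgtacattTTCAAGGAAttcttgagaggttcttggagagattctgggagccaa

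Both strands were searched for 5 motifs: GCGTG, the core that AHR binds, GAAA and GAAA with 2 bases between for interferon response elements, TTCNNNGAA for STAT sites, TGANTCA for AP-1 and GGG and TTTCC with 2 bases between for NF-kB. No match overlapped another. Windows were matched for 9 of the 10 genes, IDO1 being the exception. TDO2 held 1 AP-1 match, at positions -244 to -238 from the start, and 7.71% of 35116 promoters of the same length held that motif. KYNU held 2 STAT matches, at -34 to -26 and at 6 to 14, where 7.66% of promoters held at least 1. The AHR core was found in AFMID and in AHR itself, and in 36.5% of all promoters. The interferon response element (3.57% of promoters) and the NF-kB motif (1.91%) were in none of the 9 windows. The windows of KMO, HAAO, QPRT, AADAT and KYAT1 held none of the 5 motifs. Only 1 window was read per gene, the first listed, so other starts of a gene were not searched. The windows of AADAT and KYAT1 lay wholly inside the annotated span of the gene, downstream of its outer end. These letters are a description of the windows and do not show that a factor binds there.

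Values below are log2 intensities after quantile normalisation, averaged over the 3 arrays of a culture, and n = 3 cultures a group. Probes differ in brightness for the same amount of RNA, so levels are compared between groups and not between genes. A probe counted as above noise on an array when it exceeded 3 times the root mean square of that array's values below 0, a limit of 12.9 to 18.7 intensity units. All genes but AFMID were above noise on all 27 arrays, and none reached 99% of the highest intensity on an array. The scanner's upper limit is not known here. Array medians ran from 41.5 to 100.3 units, and 69.0% to 77.8% of probes on an array were above noise. Untreated culture 1 stood apart with array medians of 41.5 to 46.8, against 69.6 to 74.9 in the other untreated cultures. Without it TDO2, IDO1, KYNU, KMO, QPRT and AHR still passed for LPS against untreated, and HAAO, at 1.21 against 1.03 with it, did not (adjusted p = 0.0529).

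Cell type markers were each read by their brightest probe. Of 8 measured monocyte and macrophage markers 7 were above noise on all arrays of each group, and 5 rose with LPS (CD14, CSF1R, ITGAM, CD163 and TYROBP) while 0 fell. SPI1, named after its values were seen, was at -0.14 on that probe but fell on its other probe, at -0.95 (limma adjusted p = 0.0273). Intensities were also summed over each list, and the sum was given as log2. For these markers the sums were 17.05 in all PBD150 plus LPS cultures, 16.95 to 17.03 in LPS cultures and 12.55 to 12.69 in untreated cultures. Such a sum mostly follows the brightest probes of a list and does not weigh its markers evenly. With LPS the brightest were CD14 (15.86) and TYROBP (15.83) here, and NKG7 (14.94) among the T or NK lymphocyte markers. For 6 dendritic cell markers the sums were 10.64 to 11.19 with PBD150 plus LPS, 10.59 to 10.97 with LPS and 10.13 to 10.41 untreated. With LPS 2 of them rose, CD1C (2.56) and CCR7 (1.28), and 0 fell, with CCR7 above noise on 1 of 9 untreated arrays. For 6 hepatocyte markers the sums were 9.58 to 10.12 with PBD150 plus LPS, 9.62 to 10.00 with LPS and 9.68 to 9.74 untreated, and 1 of the 6, TTR, was called with LPS (1.32). On their other probes TTR was at 0.25 and did not pass, and APOA1 was at -1.05 and fell (limma adjusted p = 0.0332). The sums of 6 T or NK lymphocyte markers were 14.93 to 14.98 with PBD150 plus LPS, 14.96 to 15.27 with LPS and 13.98 to 14.16 untreated, with CD2 and NKG7 called higher. B lymphocyte markers, 4 in number, summed to 9.05 to 9.33 with PBD150 plus LPS, 9.12 to 9.62 with LPS and 10.08 to 10.17 untreated. Of these, MS4A1 rose with LPS (1.14) and CD79A fell (-1.4). The 6 fibroblast or epithelium markers summed to 9.64 to 9.84 with PBD150 plus LPS, 9.22 to 9.83 with LPS and 8.77 to 9.02 untreated. EPCAM (2.36) and DCN (1.69) rose with LPS and 0 of the 6 fell, both probes being above noise on 7 of 9 untreated arrays. No marker was at noise on every array of a group, and ALB had no named probe. The part of these marker shifts in the results below was not tested, and in bulk RNA fewer cells of a type and less RNA per cell cannot be told apart.

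**Figure D1:**
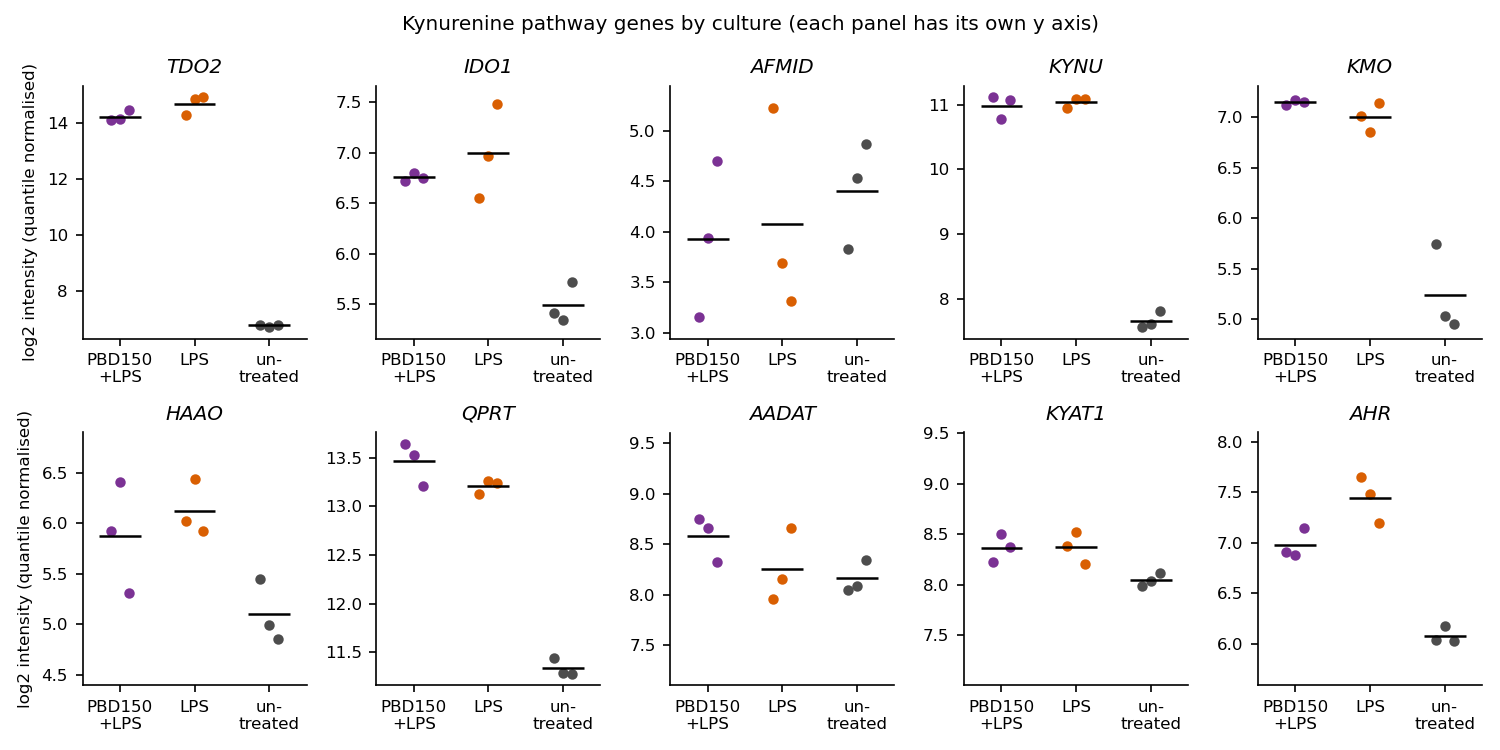
Log2 intensity of the 10 pathway genes in each culture (points, mean of 3 arrays) for PBD150 plus LPS, LPS and untreated cells, with the group mean as a line. TDO2, KYNU, QPRT, IDO1, KMO and AHR lie higher in all 6 LPS-treated cultures than in any untreated culture. So does KYAT1, by a small margin and without passing the threshold. AFMID, HAAO and AADAT overlap in at least 1 comparison with untreated cells.

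The ring-opening enzymes came first. TDO2 read 14.11, 14.14 and 14.48 in PBD150 plus LPS cultures, 14.30, 14.86 and 14.93 in LPS cultures and 6.78, 6.69 and 6.77 in untreated cultures. Every LPS-treated culture was far above every untreated one, and the untreated cultures were close together (SD 0.05). On the deposited linear scale the culture means were 16750 to 26870 units with PBD150 plus LPS, 26420 to 35960 with LPS and 81.9 to 103.3 untreated. With LPS, TDO2 rose by 7.95 ± 0.22 (log2, SE, adjusted p = 8.3e-07), or 247-fold, the rank 5 rise of all 30968 probes. Under PBD150 plus LPS it rose by 7.49 ± 0.22 (adjusted p = 1.14e-06), or 180-fold, at rank 7. Both comparisons share the untreated arrays.

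IDO1, which catalyses the same step as TDO2, read 6.72, 6.80 and 6.75 in PBD150 plus LPS cultures, 6.55, 6.97 and 7.48 in LPS cultures and 5.41, 5.34 and 5.72 in untreated cultures. The treated cultures were again all above the untreated ones, and the LPS cultures spread the most (SD 0.46, against 0.04 with PBD150 plus LPS and 0.20 untreated). With LPS, IDO1 rose by 1.51 ± 0.25 (adjusted p = 0.00312), or 2.85-fold. Under PBD150 plus LPS it rose by 1.27 ± 0.25 (adjusted p = 0.00657), or 2.40-fold. Leaving out 1 culture gave an LPS rise of 1.27 to 1.74, and the lowest value came without LPS culture 3.

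AFMID, the formamidase that follows, was dim. It read 3.16, 3.94 and 4.70 in PBD150 plus LPS cultures, 5.23, 3.69 and 3.32 in LPS cultures and 3.83, 4.53 and 4.87 in untreated cultures. It was above noise on 4 of 9 PBD150 plus LPS arrays, 5 of 9 LPS arrays and 7 of 9 untreated arrays. The groups overlapped, and neither the LPS difference of -0.33 ± 0.57 (95% interval -1.63 to 0.96) nor the PBD150 plus LPS difference of -0.48 ± 0.57 (-1.78 to 0.82) passed. The LPS value turned sign without LPS culture 3, at 0.05.

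On the branch towards NAD, KMO, the monooxygenase that makes 3-hydroxykynurenine, read 7.12, 7.17 and 7.15 in PBD150 plus LPS cultures, 7.01, 6.85 and 7.14 in LPS cultures and 5.75, 5.03 and 4.95 in untreated cultures. The untreated cultures were all lower, with culture 1 the highest of them. As deposited, before normalisation, that culture read 5.04 and the other untreated cultures 4.92 each. KMO rose by 1.76 ± 0.24 with LPS (adjusted p = 0.00114), or 3.38-fold, and by 1.90 ± 0.24 with PBD150 plus LPS (adjusted p = 0.000645), or 3.73-fold. Without untreated culture 1 the LPS rise was 2.01.

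KYNU, kynureninase, had the rise next in size to that of TDO2. It read 11.11, 10.77 and 11.07 in PBD150 plus LPS cultures, 10.95, 11.09 and 11.08 in LPS cultures and 7.56, 7.60 and 7.81 in untreated cultures. All treated cultures lay far above the untreated ones, and the LPS cultures were close to each other (SD 0.08). KYNU rose by 3.38 ± 0.18 with LPS (adjusted p = 1.5e-05), or 10.4-fold, and by 3.33 ± 0.18 with PBD150 plus LPS (adjusted p = 1.4e-05), or 10.0-fold. Those rises ranked 213 and 221 among all probes.

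HAAO, the dioxygenase whose product turns into quinolinate, read 5.92, 6.41 and 5.31 in PBD150 plus LPS cultures, 6.02, 6.44 and 5.92 in LPS cultures and 5.45, 4.99 and 4.86 in untreated cultures. The LPS cultures were above the untreated ones, but PBD150 plus LPS culture 3 fell below untreated culture 1. Its LPS rise of 1.03 ± 0.31 only just passed (adjusted p = 0.0453), and that call was lost in 8 of 18 alternatives, among them leaving out any LPS or any untreated culture (adjusted p = 0.0529 to 0.139). Its size held there, at 0.88 to 1.21 when 1 culture was left out. Its PBD150 plus LPS difference was 0.78 ± 0.31 and did not pass (adjusted p = 0.0996), while without PBD150 plus LPS culture 3 it was 1.07 (adjusted p = 0.0252).

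QPRT, the enzyme that commits quinolinate to NAD, read 13.64, 13.53 and 13.21 in PBD150 plus LPS cultures, 13.13, 13.26 and 13.24 in LPS cultures and 11.44, 11.29 and 11.28 in untreated cultures. The gap between treated and untreated cultures was many times the spread within a group, with an SD of 0.22 for PBD150 plus LPS, 0.07 for LPS and 0.09 untreated. QPRT rose by 1.87 ± 0.18 with LPS (adjusted p = 0.000213), or 3.66-fold, and by 2.12 ± 0.18 with PBD150 plus LPS (adjusted p = 0.000101), or 4.36-fold.

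The aminotransferases of the kynurenate branch did not pass. AADAT read 8.75, 8.66 and 8.32 in PBD150 plus LPS cultures, 7.96, 8.15 and 8.66 in LPS cultures and 8.05, 8.09 and 8.34 in untreated cultures, and the groups overlapped. Its difference was 0.10 ± 0.23 with LPS (95% interval -0.43 to 0.64, adjusted p = 0.803) and 0.42 ± 0.23 with PBD150 plus LPS (-0.11 to 0.96, adjusted p = 0.224). The LPS interval leaves out a doubling. KYAT1 read 8.22, 8.5 and 8.37 in PBD150 plus LPS cultures, 8.38, 8.52 and 8.20 in LPS cultures and 7.99, 8.03 and 8.11 in untreated cultures. Its treated cultures all lay above its untreated ones, by a small margin, and the differences of 0.32 ± 0.17 with LPS (-0.08 to 0.72, adjusted p = 0.236) and 0.32 ± 0.17 with PBD150 plus LPS (-0.08 to 0.72, adjusted p = 0.215) did not pass.

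AHR read 6.91, 6.88 and 7.14 in PBD150 plus LPS cultures, 7.65, 7.48 and 7.19 in LPS cultures and 6.04, 6.17 and 6.03 in untreated cultures. The groups stood in the order LPS, PBD150 plus LPS, untreated, with no overlap of cultures. AHR rose by 1.36 ± 0.19 with LPS (adjusted p = 0.00124), or 2.56-fold, and by 0.90 ± 0.19 with PBD150 plus LPS (adjusted p = 0.00849), or 1.86-fold. Counting over the 10 genes, cultures lay apart from untreated ones, all higher, in 8 genes with LPS and 7 with PBD150 plus LPS, and lower in 0 of the 10 in both. Among all probes 23.4% were higher and 20% lower without overlap for LPS, and 24% higher and 21.3% lower for PBD150 plus LPS.

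**Figure D2:**
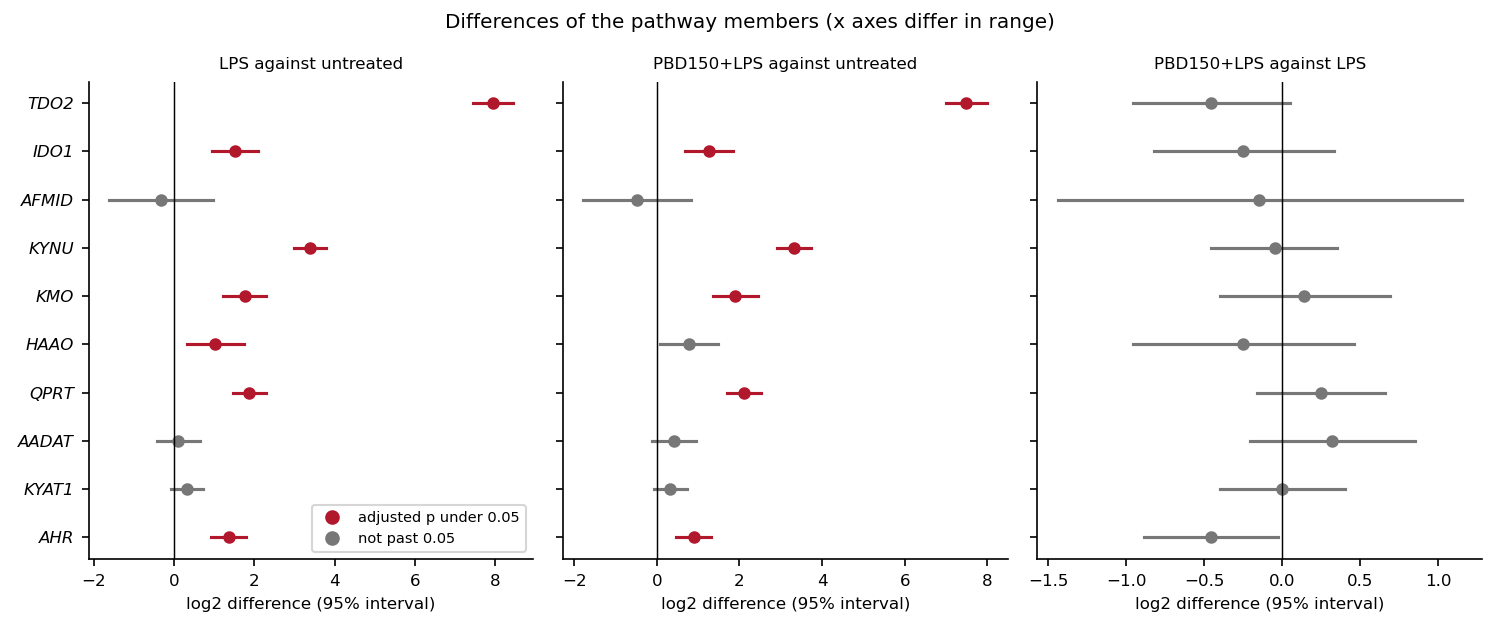
Log2 difference and 95% interval (limma) of the 10 genes for LPS against untreated, PBD150 plus LPS against untreated and PBD150 plus LPS against LPS, red where the adjusted p is under 0.05. The rises of TDO2 (7.95 and 7.49) and KYNU (3.38 and 3.33) stand out, and no gene is red in the right panel, whose axis is narrower.

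The study's question, from its title, concerns glutaminyl cyclase activity during inflammation, and the comparison of PBD150 plus LPS with LPS alone addresses it. None of the 10 genes passed, with adjusted p of 0.906 or above for all of them (limma). At an unadjusted p under 0.05 there was 1, AHR, while 5.11% of all probes were at that level. AHR differed by -0.46 ± 0.19 (95% interval -0.89 to -0.03, unadjusted p = 0.0373), or 0.726-fold. It was the only one of the 10 whose cultures did not overlap, all PBD150 plus LPS cultures being lower, as for 4.29% of all probes, while 3.69% were higher without overlap. The margin was thin: PBD150 plus LPS culture 3 was at 7.14 and LPS culture 3 at 7.19, and single arrays of those cultures overlapped (6.91 to 7.32 and 6.92 to 7.66). The AHR difference stayed negative in 18 of 18 alternatives, from -0.59 to -0.36, and passed in 0 of them (adjusted p = 0.383 to 1).

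TDO2 differed by -0.46 ± 0.22 (-0.96 to 0.05, unadjusted p = 0.0696), and PBD150 plus LPS culture 3 at 14.48 lay above LPS culture 1 at 14.30. Its alternatives ran from -0.66 to -0.34. IDO1 was at -0.25 ± 0.25 (-0.82 to 0.33) and almost without difference, at -0.01, when LPS culture 3 was left out. KYNU was at -0.05 ± 0.18 (-0.46 to 0.35) and KYAT1 at 0.00 ± 0.17 (-0.40 to 0.40), the narrowest intervals with that of QPRT at 0.25 ± 0.18 (-0.16 to 0.66). KMO was at 0.14 ± 0.24 (-0.40 to 0.69), AADAT at 0.32 ± 0.23 (-0.21 to 0.85), HAAO at -0.25 ± 0.31 (-0.96 to 0.46) and AFMID at -0.15 ± 0.57 (-1.44 to 1.15). For 9 of the 10 genes the interval left out a 2-fold change in either direction, AFMID being the exception, and for all 10 it left out a 4-fold change. These intervals use a spread shared with untreated cells, whose median SD between cultures was 0.206, against 0.373 with PBD150 plus LPS and 0.365 with LPS, so they may be too narrow here.

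**Figure D3:**
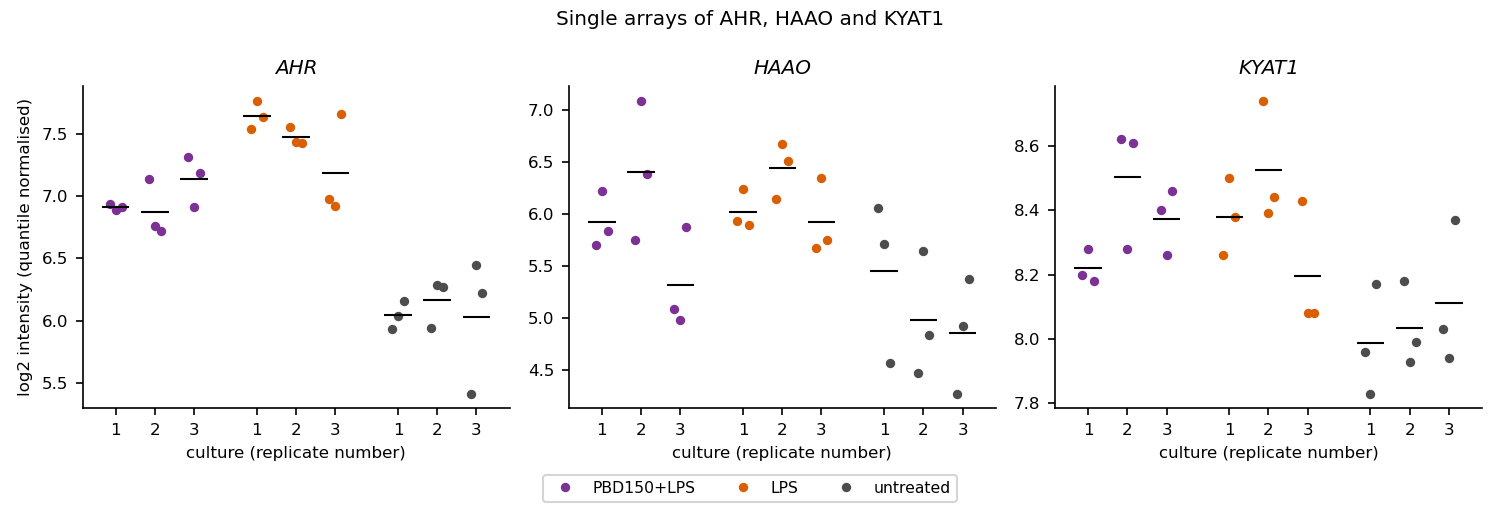
Log2 intensity on each single array (points, 3 per culture) with the culture mean (line) for AHR, HAAO and KYAT1. The AHR cultures at 7.14 (PBD150 plus LPS culture 3) and 7.19 (LPS culture 3) nearly meet, and HAAO at 5.31 in PBD150 plus LPS culture 3 lies among the untreated cultures.

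Genes around the pathway were read from lists, each gene by its brightest probe, where 13.6% of 15207 genes were called higher and 15.4% lower with LPS and the median gene differed by 0.05. Of 4 measured enzymes at the pathway's other exits 0 were called with LPS (median -0.33), and 0 to 2 were lower over the alternatives. GOT2, a mitochondrial aminotransferase that can also make kynurenate, was at -1.27 ± 0.42 (adjusted p = 0.0616) and is named after its value was seen. IDO2, the paralogue of IDO1, was at -0.24 ± 0.21 and ACMSD, which diverts the precursor of quinolinate to another product, at 0.07 ± 0.51.

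NAD synthesis and salvage had 4 of 10 measured genes higher and 0 lower (median 0.22). NAMPT, the nicotinamide phosphoribosyltransferase of the salvage route, averaged 10.50 ± 0.42 with LPS and 7.68 ± 0.15 untreated (log2, SD) and rose by 2.82 ± 0.37 (adjusted p = 0.00101). NMRK1, a nicotinamide riboside kinase, rose by 2.08, NMNAT2, an adenylyltransferase that forms the dinucleotide, by 1.43 and NADSYN1, which adds the amide that completes NAD, by 0.89. NMNAT1, the nuclear adenylyltransferase, was at -0.27 on its brighter probe and 0.21 on the other, neither past the threshold. The same 4 genes were higher with PBD150 plus LPS than untreated, with NAMPT at 2.64.

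Among NAD-consuming enzymes, 3 of 14 rose and 1 fell with LPS (median 0.06). PARP9 rose by 3.38 and PARP10 by 1.93, both ADP-ribosylation proteins known as interferon-stimulated, though the PARP9 probe was above noise on only 2 of 9 untreated arrays. SIRT2, a deacetylase, rose by 1.05, and PARP1, the main nuclear poly(ADP-ribose) polymerase, was at -1.54 and fell. Of 8 genes of tryptophan transport and tRNA charging, 0 rose and 2 fell (median -0.58): SLC7A5, the light chain of the large neutral amino acid transporter that carries tryptophan and kynurenine, at -1.32 and WARS2, the mitochondrial tryptophanyl-tRNA synthetase, at -2.29. WARS1, the cytosolic synthetase, was at -0.49 ± 0.26 and did not pass. Of 6 measured genes of serotonin and other tryptophan branches none was called (median 0.40), and both tryptophan hydroxylases, TPH1 and TPH2, were above noise on no LPS or untreated array. MAOB was above noise on 3 of 9 LPS and 2 of 9 untreated arrays, and AANAT on 3 of 9 in each group. This median therefore rests on values at or near noise. MAOA, monoamine oxidase A, was at 0.46 on its brighter probe, while its other probe, above noise on 21 of 27 arrays, rose by 3.05 (adjusted p = 0.00107). The MAOA probe, TPH1, TPH2, MAOB and AANAT were named after their values were seen.

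For AHR signalling, 1 of 4 measured partners and chaperones rose and 2 fell with LPS (median -0.15). ARNT2, a dimerisation partner, was at 0.67, BMAL1, a related clock factor, at -0.96 and PTGES3, the p23 co-chaperone of the receptor complex, at -1.74. The count of partners higher ran from 0 to 2 over the alternatives, and that of AHR targets from 1 to 3. AHRR, the receptor's repressor, had no named probe. Of 8 measured AHR target genes 1 rose and 0 fell (median 0.47). It was CYP1A1, the classical AHR-induced monooxygenase, which averaged 8.95 ± 0.35 with PBD150 plus LPS, 8.33 ± 0.22 with LPS and 7.04 ± 0.15 untreated. It rose by 1.29 ± 0.23 with LPS (adjusted p = 0.00431) and by 1.92 ± 0.23 with PBD150 plus LPS (adjusted p = 0.000514). Between the LPS-treated groups CYP1A1 differed by 0.62 ± 0.23 (95% interval 0.10 to 1.15, adjusted p = 0.906), the opposite sign to AHR, and neither passed. CYP1B1, another AHR target, was at 0.01 ± 0.26 with LPS.

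Among the kynurenate receptor and regulators of IDO1, 4 of 13 measured genes rose and 1 fell with LPS (median 0.86). GPR35, a receptor that kynurenate can activate, rose by 2.32 ± 0.48 (adjusted p = 0.00865). RELB, an NF-kB subunit, rose by 3.23 on its brighter probe and 1.26 on the other, and IRF1, an interferon regulatory factor that drives IDO1, by 1.31 and 2.19. BIN1, described as restraining IDO1 in mouse cells, was at -1.11 and fell, and its other probe was never above noise. RELA, another NF-kB subunit, named after its values were seen, was at 0.22 on its brighter probe, which did not pass. On its other probe RELA was at -1.31 and fell (limma adjusted p = 0.0403). Of 6 measured genes of the response to amino acid shortage 3 rose and 1 fell (median 0.13): CHAC1, a glutathione-degrading enzyme, by 1.19, SESN2, a leucine sensor, by 1.01 and DDIT3, the stress factor CHOP, by 0.82, while ASNS, asparagine synthetase, was at -1.21. Over the alternatives 2 to 3 were higher and 0 to 3 lower. Of 3 cofactor genes RFK, riboflavin kinase, fell, at -0.92. PDXK, pyridoxal kinase, named after its values were seen, was at 0.83 on its brighter probe, which did not pass, and rose by 0.70 on the other (adjusted p = 0.0118). In PBD150 plus LPS against LPS, 0 genes of any of these lists passed.

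Against untreated cells, PBD150 plus LPS gave 15.3% of genes higher and 17.9% lower. The lists of NAD synthesis (4 higher, 0 lower), NAD consumers (3 and 1), tryptophan transport (0 and 2) and amino acid shortage (3 and 1) had the same counts as with LPS alone. In the other lists 9 genes were called that LPS alone did not call, all named after their values were seen. Those above noise on all arrays of both groups were GOT2 at -1.91, ARNT, the main AHR partner, at 0.99, SOCS1, an inhibitor of cytokine signalling, at 1.88, SERPINB2, an AHR target, at 0.96, PDXK at 1.08 and FLAD1, which makes FAD, at -0.52. SERPINB2, PDXK and FLAD1 were close to the threshold (adjusted p = 0.0442 to 0.0483). The calls of MAOB, TPH1 and NQO1 rest on values at or near noise: MAOB was above it on 4 of 9 PBD150 plus LPS arrays and 2 of 9 untreated arrays, NQO1 on 0 of 9 PBD150 plus LPS arrays and 3 of 9 untreated arrays, and TPH1 on none of either. Their differences are not given. These were not shown to differ between the LPS-treated groups, where none passed.

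**Figure D4:**
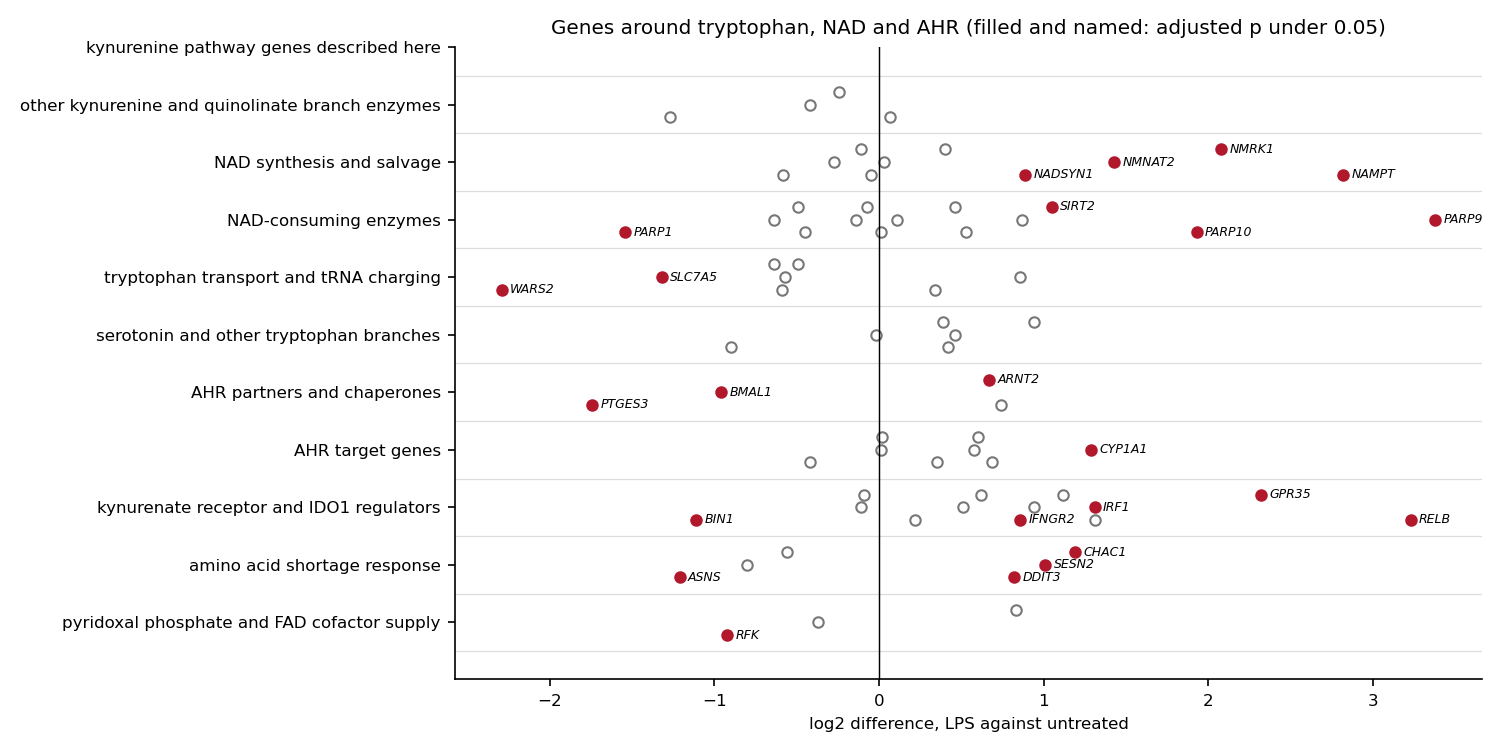
Log2 difference for LPS against untreated of each measured gene in the lists around the pathway (points, brightest probe), by list. Points are filled and named where the adjusted p is under 0.05. PARP9 at 3.38 lies furthest right in these lists, and rests on a probe above noise on 2 of 9 untreated arrays. The row labelled kynurenine pathway genes described here is drawn empty, so the 10 pathway genes are not read from this plot. Their differences, with TDO2 at 7.95 and KYNU at 3.38, are in the plot of differences with 95% intervals. Most lists hold both called and uncalled genes around 0.

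The genes whose levels ran most closely with TDO2 and KYNU over the 9 cultures were found among 9265 other genes at or above the median brightness. For TDO2 they were SPP1 (Pearson r = 0.999), which encodes osteopontin, SLC15A3 (r = 0.998), a lysosomal peptide transporter, and ITGB5 (r = 0.998), an integrin subunit. SPP1 averaged 14.90 with PBD150 plus LPS, 15.27 with LPS and 6.30 untreated. For KYNU they were LILRA3 (r = 0.999), a soluble leukocyte receptor, ADGRE1 (r = 0.999), an adhesion receptor of macrophages, and YIPF3 (r = 0.999), a Golgi protein. The 9 cultures form 3 groups with large steps between treated and untreated, so many genes that change with LPS come close to such values. AFMID, the gene with the lowest LPS difference, had SETD5 (r = 0.964), NPEPPS (r = 0.960) and SETDB1 (r = 0.959) as its nearest genes. AFMID was near noise, above it on 4 of 9 PBD150 plus LPS, 5 of 9 LPS and 7 of 9 untreated arrays. Its nearest genes were the highest of 9266 over 9 cultures, so these values do not by themselves show a relation.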

How the data were processed

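RNA from U937 cells (2.5 µg per array, Cy5) was hybridised to Phalanx Human OneArrays. As deposited, each array has a linear intensity for each probe, some below 0. How background and scale were set before deposit is not given in the sources used here. Intensities were floored at 1 (4.35% to 7.59% of values per array), log2 transformed, quantile normalised over 27 arrays and averaged over the 3 arrays of a culture. Tests used limma 3.58.1 in R 4.3.3: a group-means model over 9 cultures, moderated variances, two-sided, Benjamini-Hochberg over 30968 probes at 0.05. The code was also run on simulated data with the same spread in all groups and no difference planted between the LPS-treated groups. That run cannot check the unequal spread of the groups here, nor the detection of differences between the LPS-treated groups. The number of cultures, 3 a group, limits the precision. The labels call replicates biological, and nothing says how separate the cultures were. Same-numbered cultures did not deviate together (correlations -0.219 to 0.036 over 9 pairs), so no replicate block was used.

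Symbols came from the platform table, updated through RefSeq genes of GRCh38.p14 (14670 current, 2645 updated, 82 unmatched). The members, lists and naming rule were chosen with earlier results of these data known. Text names all members, up to 4 called genes per list, 10 further genes whatever their result (1 is not reported here), and the 3 genes most correlated with TDO2, KYNU and AFMID. Alternatives changed the normalisation, pseudocount, dim-probe filter, technical-array handling, array weights, moderation, samples fitted, replicate block and probe choice, and left out each culture in turn.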

Additional observations from a re-analysis of the deposited data

How the results depend on the processing

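Of the 10 genes, TDO2, IDO1, KYNU, KMO, QPRT and AHR passed in both comparisons with untreated cells under 18 of 18 alternatives, and none of the 10 passed for PBD150 plus LPS against LPS. No called direction was reversed. HAAO with LPS passed in 10 of 18 (0.75 to 1.46), and median centring gave 0.98 (adjusted p = 0.0802). With PBD150 plus LPS it passed in 3 of 18, among them without quantile normalisation (1.06) and with array weights (1.02). KYAT1 passed in 1 of 18 in each of those comparisons, with all arrays and a random block per culture (0.32, adjusted p = 0.0427 for LPS and 0.038 for PBD150 plus LPS). AFMID had no value without dim probes, and no gene had another probe to try. With the replicate block the counts of genes higher were 7 with LPS and 6 with PBD150 plus LPS, as without it, and HAAO with LPS had adjusted p = 0.046.

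Without quantile normalisation the median gene moved to 0.38 for LPS against untreated, and 5935 probes were called higher and 2205 lower, against 3292 and 3664 with it. Array weights gave 5458 higher and 5552 lower for LPS, and 6373 higher for PBD150 plus LPS against untreated. Leaving out 1 culture gave 6 to 7 of the genes higher in each comparison with untreated cells and 0 lower. Over all probes it gave 2256 to 3724 higher and 2415 to 4160 lower for LPS, and 2597 to 5051 higher and 2964 to 4805 lower for PBD150 plus LPS, both lowest without untreated culture 2. For PBD150 plus LPS against LPS it gave 0 and 0, and the random block over all arrays called 1 probe higher and 13 lower, none of the 10 genes. The causes of these shifts were not tested.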
